A study of Homo sapiens with 5 samples.

Results

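The 10 glycosyltransferase genes that build glycosphingolipids and lactosamine chains were followed on arrays of MIAPaCa2 cells, an established human pancreatic ductal adenocarcinoma (PDAC) line. They are UGCG, B4GALT5, B4GALT6, ST3GAL5, B3GNT5, B4GALT1, B4GALT2, B4GALT3, B4GALT4 and B4GALT7. The members were chosen by gene name with log2 differences of these same arrays in view, so that their values are a description and counts over them are no test. All 26 probe sets that the platform annotation gives to these 10 genes alone were kept, of 41091 probe sets with 1 gene symbol and 19775 genes in all, and no probe set joined a member to another gene.

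Each of 5 stably transfected populations gave 1 Affymetrix array. MP2-mock cells carried the vector alone under drug selection. Both MP2-α2/TC and the MP2-α2/CI populations carried the full-length α2 integrin from 1 viral (cytomegalovirus) promoter construct, under zeocin, the former kept in standard culture and the latter on collagenI. MP2-α2Δ cells carried α2 without its cytoplasmic domain, under zeocin and on collagenI, and MP2-α9α2 cells carried the α9 extracellular and transmembrane domains joined to the α2 cytoplasmic domain, under G418 and on the tenascin FNIII fragment. Coatings were 25 μg/mL collagenI and 10 μg/mL tenascin FNIII. All were panned or drug-selected mixed populations rather than clones. The study describes panning on collagenI for the α2 and α2Δ cells and on tenascin FNIII for the α9α2 cells, and none for MP2-mock. Both full-length α2 populations came from the same panning, so that α2 and panning cannot be told apart against MP2-mock. Construct, substrate and drug differed together between MP2-α2Δ and MP2-α9α2 cells, so that these cannot be told apart either. The question put to the arrays was which transcripts follow α2 expression, its engagement by collagenI, and its ectodomain or cytoplasmic domain.

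Glycosphingolipids are ceramides that carry sugar chains on the outer face of the cell. UGCG adds glucose to ceramide in the Golgi, and B4GALT5 and B4GALT6 add galactose to make lactosylceramide, from which the series divide. ST3GAL5 adds sialic acid to lactosylceramide to make the ganglioside GM3, while B3GNT5 adds N-acetylglucosamine and opens the lacto and neolacto series. B4GALT1 to B4GALT4 add galactose to N-acetylglucosamine and so make lactosamine on glycoproteins and glycolipids, and B4GALT7 adds galactose to xylose in the linker of proteoglycans.

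The deposited values, taken here as log2, had a common minimum of 2.24 in MP2-mock and both full-length α2 populations (the first set, given below in the order mock, standard culture, collagenI) and of 2.21 in the truncated and chimeric ones (the second set), and the arrays were taken as normalized in these 2 sets. Differences were therefore computed within a set. A floor of 2.21 to 2.27, set on each array so that 95% of 107 probe sets for odorant receptors fell at or below it, marked background. With 1 array per population no difference has an error or a test, and the number of arrays limits the precision. Keratins KRT8, KRT18 and KRT19 lay at 11.74 to 15.22 on the log2 scale, vimentin (VIM) at 15.48 to 15.85 and ZEB1 at 10.12 to 11.09. EPCAM lay at the floor on all 5 arrays, while CDH1 read 2.26 and KRT7 2.37 at most. Of the mesenchymal markers SPARC lay at the floor, and CDH2 and FN1 read 2.31 and 2.28 at most. By count, 3 to 4 of 6 epithelial and 2 to 4 of 5 mesenchymal markers were above the floor. Where counted, CDH1, KRT7, CDH2 and FN1 were only just above it. Blood cell markers were at the floor for 5 of 6 genes on each array (CD14, at 2.91 to 3.38, was the other), with summed linear levels of 30.6 to 34.0, and all 3 acinar markers were at the floor. Fibroblast markers lay at the floor for 4 to 6 of 8 genes, DCN and LUM among them, with summed levels of 4190 to 8980 that came mainly from COL1A2, while endothelial markers summed to 27.5 to 39.8 with VWF at the floor. The part of these markers in the differences below was not tested. The study states that its α2 transgene is without the 3′ sequence read by the ITGA2 probe sets, in which case they check no label. In MP2-α2Δ cells ITGA2 read 7.28 by 227314_at and 3.28 by 205032_at, against 2.21 to 2.24 on the other 4 arrays. The study also reports that its array analysis found no α2 expression in these populations. The MP2-α2Δ values are at odds with that report, and their source was not tested. ITGA9 lay at the minimum throughout. The 3′ minus 5′ log2 difference of the ACTB control probe sets was -1.0 to -0.90 in the first set of arrays and 0.48 to 0.57 in the second.

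Every one of the 10 genes had a probe set above the floor on all 5 arrays. In all, 22 of the 26 probe sets were above it throughout, 2 were above it on some arrays (B4GALT3 238312_s_at in MP2-mock cells alone, B4GALT6 206232_s_at on all but MP2-α2Δ), and 2 (B4GALT1 229403_at and B4GALT6 231342_at) were never above it. The members fell into those that stood apart in full-length α2 cells (UGCG and B3GNT5), those that stood apart between the truncated and chimeric constructs (B4GALT6, B3GNT5 and ST3GAL5), and those that stayed within 1.5-fold in both sets (B4GALT1, B4GALT2, B4GALT3, B4GALT4, B4GALT5 and B4GALT7). At least 2-fold apart in full-length α2 cells were UGCG by 221765_at alone, in MP2-α2/TC only, and B3GNT5 by 225612_s_at alone, in both populations.

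**Figure D1:**
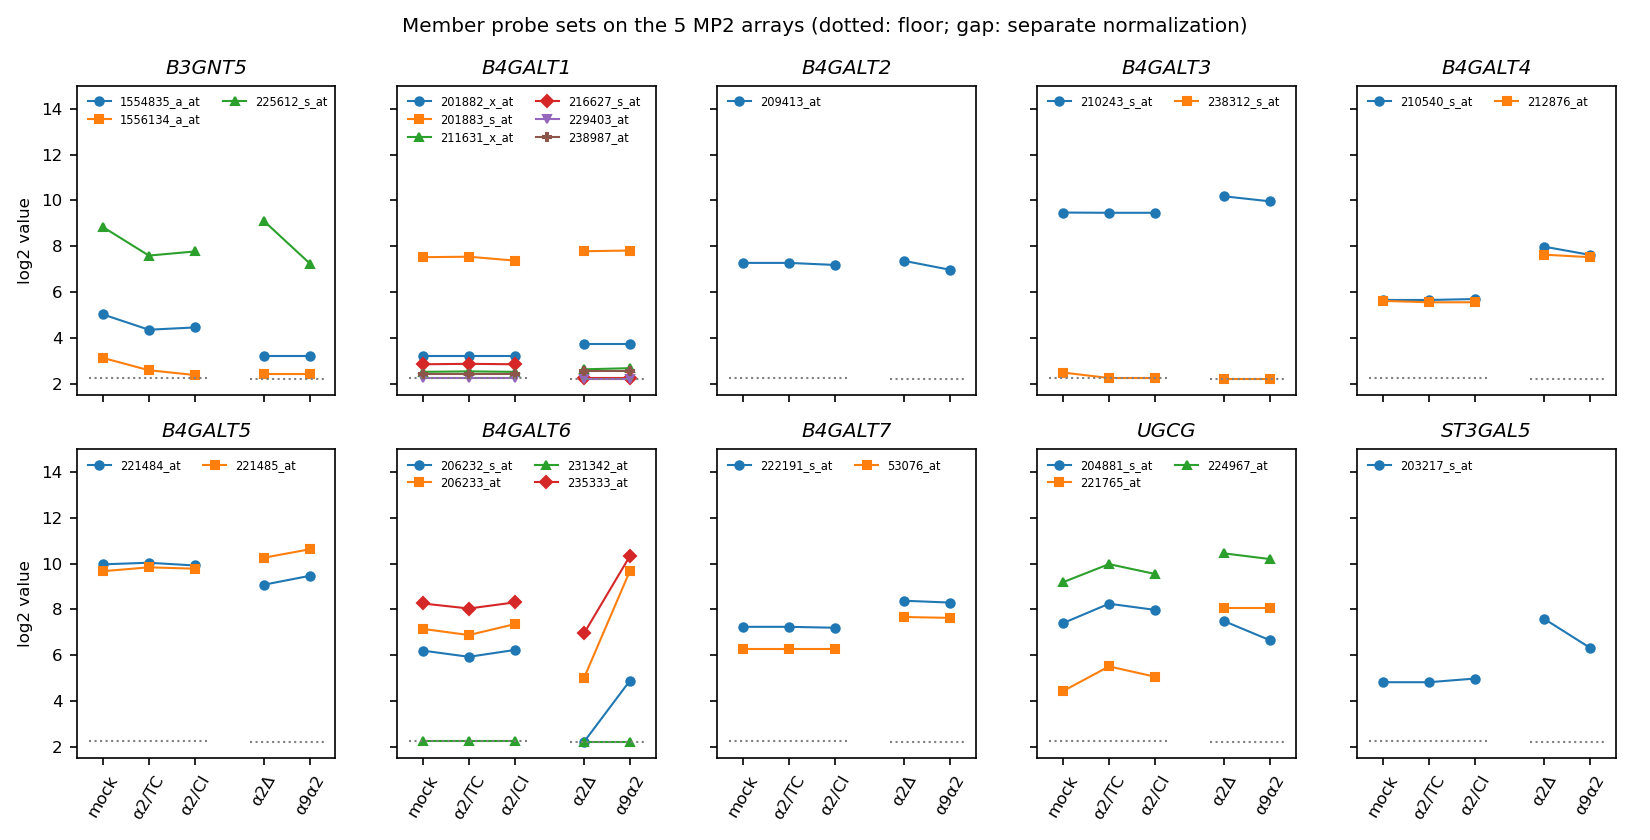
Log2 value (y axis) of each member probe set on each of the 5 arrays (x axis, MP2- prefix left out), 1 panel per gene, 1 marker per array and probe set, lines only within a normalization set, and the floor dotted. B4GALT6 lies at 10.34 in MP2-α9α2 and 6.95 in MP2-α2Δ cells by probe set 235333_at, and UGCG is highest in MP2-α2/TC within the first set by all 3 probe sets.

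The regions just before the start sites of UGCG and B3GNT5 are shown because these genes lay on opposite sides of MP2-mock in α2 cells, and that of B4GALT5 because it stayed within 1.5-fold in both sets. Each is the 250 bases upstream of the start, 5′ to 3′ on the strand of the gene, from RefSeq on GRCh38.p14. Capitals mark a GC box, searched as GGGCGG on both strands. The windows are chr9:111896564-111896813 (+) for UGCG, chr3:183253003-183253252 (+) for B3GNT5 and chr20:49713879-49714128 (-) for B4GALT5.
UGCG: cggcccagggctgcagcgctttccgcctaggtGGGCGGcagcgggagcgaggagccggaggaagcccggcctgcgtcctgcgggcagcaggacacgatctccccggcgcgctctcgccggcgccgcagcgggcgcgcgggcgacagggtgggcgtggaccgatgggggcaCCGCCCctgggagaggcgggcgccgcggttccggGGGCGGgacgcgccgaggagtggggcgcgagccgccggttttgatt
B3GNT5: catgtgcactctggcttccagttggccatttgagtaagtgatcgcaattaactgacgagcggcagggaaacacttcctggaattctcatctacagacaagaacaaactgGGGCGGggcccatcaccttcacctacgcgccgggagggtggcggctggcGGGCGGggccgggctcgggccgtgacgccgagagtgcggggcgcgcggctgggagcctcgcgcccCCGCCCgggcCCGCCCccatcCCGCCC
B4GALT5: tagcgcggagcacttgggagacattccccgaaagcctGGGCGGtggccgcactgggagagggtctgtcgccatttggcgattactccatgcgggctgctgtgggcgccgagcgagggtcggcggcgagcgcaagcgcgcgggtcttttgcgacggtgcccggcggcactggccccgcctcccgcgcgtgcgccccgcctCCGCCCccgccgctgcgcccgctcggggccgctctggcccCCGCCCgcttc
The UGCG window held 3 GC boxes, the B3GNT5 window 5 and the B4GALT5 window 3, with GC contents of 78.4%, 68.0% and 75.6%. None of the 3 held any of the other motifs searched on both strands, named below. A GC box occurred in 12 of 16 windows found for 9 of the member genes, some of them alternative starts that overlap, and in 42.6% of 35116 windows of all genes. The CCAAT box (letters CCAAT) occurred in 5 of the 16 and in 32.0% of all windows. The TATA box (letters TATAAA) occurred in none of the 16 and in 10.7% of all, and the AP-1 site (letters TGACTCA) in none of the 16 and in 4.2% of all. These matches describe the letters of the windows and are not sites of any factor.

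UGCG, the ceramide glucosyltransferase that starts most glycosphingolipids, lay higher in α2 cells by each of its 3 probe sets. Probe set 224967_at read 9.19 in mock cells, 9.98 with α2 in standard culture and 9.55 with α2 on collagenI. Probe set 204881_s_at read 7.40, 8.25 and 7.98, and probe set 221765_at read 4.43, 5.51 and 5.06, in the same order. The order MP2-α2/TC, MP2-α2/CI, MP2-mock thus held from high to low in all 3. Against MP2-mock the log2 differences in MP2-α2/TC cells were 0.79, 0.85 and 1.09, or 1.73-fold, 1.80-fold and 2.13-fold. In MP2-α2/CI cells they were 0.36, 0.57 and 0.63, or 1.28-fold, 1.49-fold and 1.55-fold. UGCG values on collagenI therefore lay between those in standard culture and MP2-mock, with log2 differences of -0.28 to -0.46 between the α2 populations. Between MP2-α2Δ and MP2-α9α2 cells the differences varied in size, with 0.84 by 204881_s_at (7.49 against 6.65), 0.25 by 224967_at (10.45 against 10.20) and 0.00 by 221765_at (8.06 on both arrays). As these are whole populations, a smaller share of cells with a transcript and less of it per cell cannot be told apart here or for the genes that follow.

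B3GNT5, which commits lactosylceramide to the lacto and neolacto series, ran the other way in α2 cells. Probe set 225612_s_at read 8.84 in mock cells, 7.59 in MP2-α2/TC, 7.77 in MP2-α2/CI, 9.10 in MP2-α2Δ cells and 7.24 in MP2-α9α2. MP2-mock was the highest array of the first set, and MP2-α2Δ the higher of the second. The log2 differences from MP2-mock were -1.25 in MP2-α2/TC (2.38-fold lower) and -1.07 in MP2-α2/CI cells (2.10-fold lower), whereas MP2-α2Δ exceeded MP2-α9α2 by 1.85 (3.62-fold). The other two probe sets of B3GNT5 were also lower in α2 cells. Probe set 1554835_a_at read 5.02, 4.35 and 4.45, and probe set 1556134_a_at, within 1 log2 unit of the floor, read 3.12, 2.58 and 2.37. They gave no difference between MP2-α2Δ and MP2-α9α2 cells, with identical values of 3.21 by 1554835_a_at and of 2.43 by 1556134_a_at on both arrays. The floor there was 2.21, and whether low signal narrowed these differences was not tested. Identical values were common in this pair, for 29.7% of all probe sets tested and 5 of 23 members, so these probe sets are a weak check. The difference between those constructs thus rests on 1 of 3 probe sets, and the ID of that probe set ends in _s_at, the platform's mark for probes shared among transcripts.

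In MP2-α2/TC against MP2-mock cells, 24 member probe sets were above the floor on either array. Of these, 1 (UGCG 221765_at, 4.17%) was at least 2-fold higher, beside 0.214% of the 29885 probe sets of all genes, and 1 (B3GNT5 225612_s_at, 4.17%) was at least 2-fold lower, beside 0.248%. At 1.5-fold, 3 were higher, all of UGCG, beside 0.576% of all, and 2 were lower, both of B3GNT5, beside 0.599%. In MP2-α2/CI against MP2-mock cells, none of 24 was at least 2-fold higher, beside 0.236% of all, and 1 (B3GNT5 225612_s_at) was lower, beside 0.256%. At 1.5-fold, 1 was higher (UGCG 221765_at), beside 1.01%, and 2 were lower, both of B3GNT5, beside 0.754%. Since these contrasts were in view when the genes were chosen, the counts are given beside their background only. Both comparisons share the MP2-mock array, so that its value enters each of these differences. On collagenI relative to standard culture, none of 23 members was at least 2-fold higher (0.0335% of all) or lower (0.104%). With shares this small, none among 23 is near the background and no result about the members. Of the 23, 13 lay within 1.1-fold, beside 85.1% of all probe sets. The median absolute log2 difference was 0.1 over the members and 0 over all. The member furthest apart there was B4GALT6 206233_at, at 0.47. Just inside the 2-fold limit lay UGCG 221765_at (1.09, MP2-α2/TC) and B3GNT5 225612_s_at (-1.07, MP2-α2/CI). Just outside it lay UGCG 204881_s_at (0.85, MP2-α2/TC) and B3GNT5 1556134_a_at (-0.75, MP2-α2/CI).

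**Figure D2:**
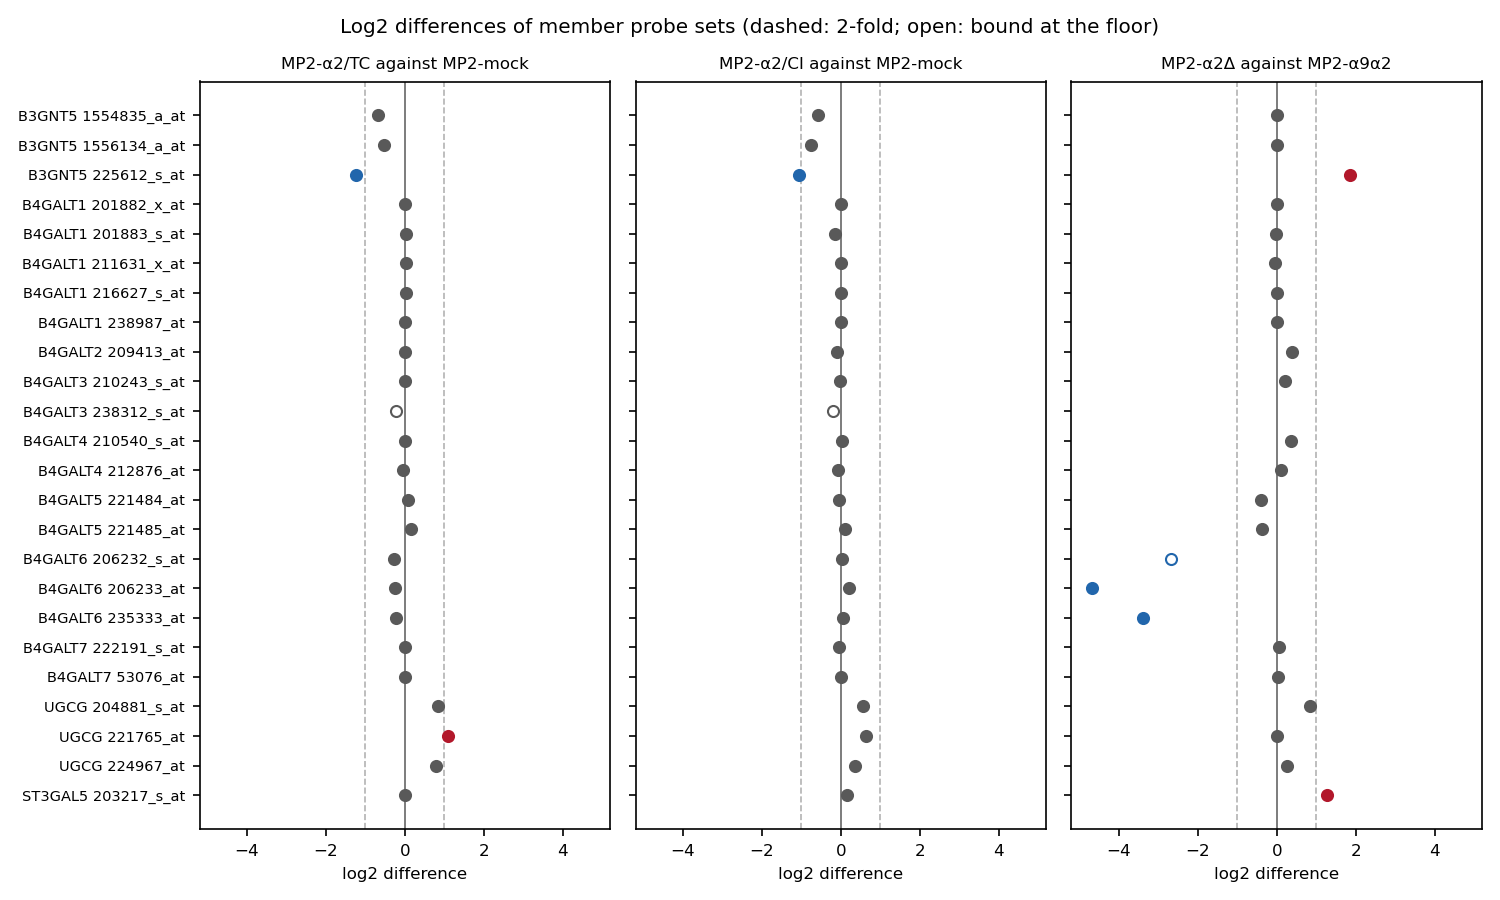
Log2 difference (x axis) of each member probe set above the floor (y axis) in MP2-α2/TC and MP2-α2/CI against MP2-mock and in MP2-α2Δ against MP2-α9α2 cells, with dashed lines at 2-fold, filled points for differences and open points for bounds at the floor. The 3 UGCG probe sets lie right of 0 and the 3 B3GNT5 probe sets left of it in both α2 populations, and B4GALT6 reaches -4.69 between the constructs.

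B4GALT6, a lactosylceramide synthase, showed the widest separation of any member. Probe set 206233_at read 5.0 in MP2-α2Δ cells against 9.69 in MP2-α9α2, which is -4.69 in log2 (25.8-fold). Probe set 235333_at read 6.95 and 10.34, a difference of -3.39 (10.5-fold). By probe set 206232_s_at MP2-α2Δ lay at the floor of 2.21 and MP2-α9α2 at 4.89, at least 6.42-fold lower, a bound that shrank to a log2 difference of -0.89 with a floor at 4. All 3 detected probe sets of B4GALT6 were thus lower in MP2-α2Δ cells. In the first set the gene stayed within 1.5-fold, at 8.26, 8.04 and 8.31 by 235333_at, at 7.15, 6.88 and 7.36 by 206233_at and at 6.20, 5.93 and 6.23 by 206232_s_at. MP2-α2/TC was the lowest of these arrays by all 3 probe sets and MP2-α2/CI the highest, with log2 differences of 0.27, 0.47 and 0.30 between them. In that pair 85.1% of all probe sets tested lay within 1.1-fold.

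B4GALT5, the other lactosylceramide synthase, lay less than 1.5-fold apart in every pair of arrays within a set. Its probe sets read 9.08 (221484_at) and 10.26 (221485_at) in MP2-α2Δ cells, against 9.47 and 10.63 in MP2-α9α2 cells, log2 differences of -0.39 and -0.37. In the first set 221484_at read 9.97, 10.04 and 9.92, and 221485_at read 9.67, 9.84 and 9.78.

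ST3GAL5, the GM3 synthase, had a single probe set, 203217_s_at. It read 4.82, 4.82 and 4.98 in the first set, with no pair more than 0.15 apart. In the second set MP2-α2Δ read 7.59 and MP2-α9α2 6.32, which is 1.28 in log2 (2.43-fold). Of 23 member probe sets tested between these constructs, 2 were at least 2-fold higher in MP2-α2Δ (B3GNT5 225612_s_at and ST3GAL5 203217_s_at, 8.70%), beside 7.56% of the 30975 probe sets of all genes, so that the share of higher members lay near the background. At least 2-fold lower were 3 (13.0%), beside 4.95%, and all 3 belong to B4GALT6, which counts as 1 gene. The median difference over the members was 0.00, as over all probe sets, and the median absolute difference was 0.22 in each. Just inside the limit lay ST3GAL5 (1.28), and just outside it UGCG 204881_s_at (0.84).

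**Figure D3:**
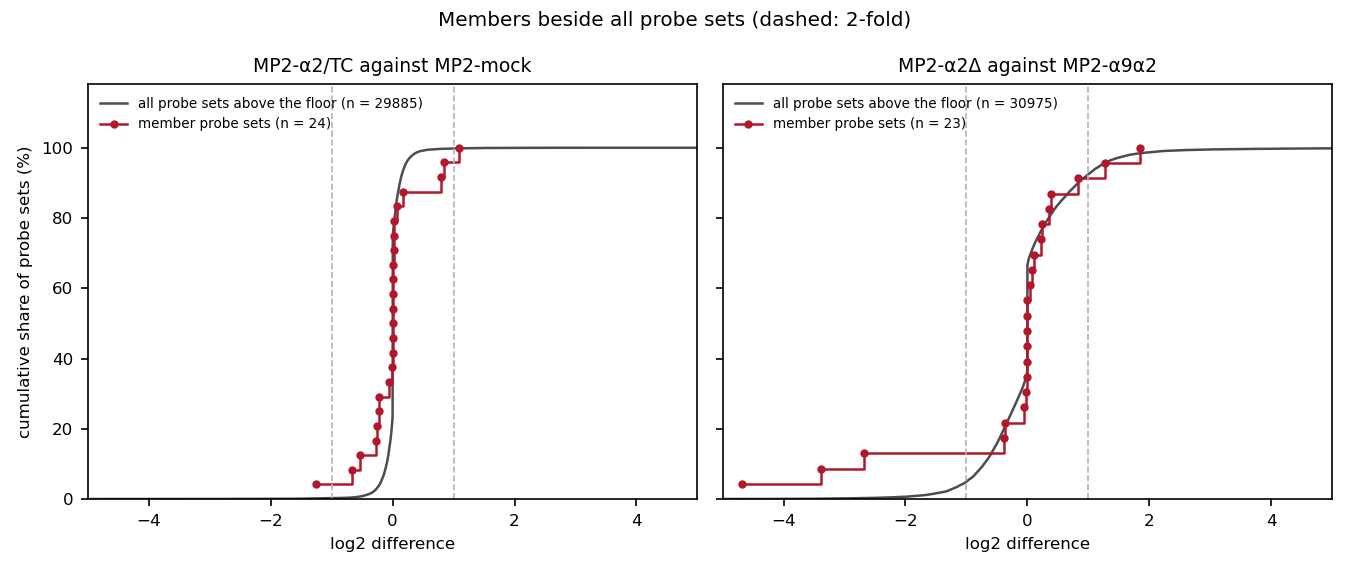
Cumulative share of probe sets (y axis, %) by log2 difference (x axis) in MP2-α2/TC against MP2-mock and in MP2-α2Δ against MP2-α9α2 cells, for all probe sets above the floor (grey) and for the member probe sets (red), with dashed lines at 2-fold. In the second panel the curves run close together except for the 3 B4GALT6 probe sets at -2.68 and below.

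The lactosamine galactosyltransferases lay within 1.5-fold in each set. B4GALT1, the widely expressed enzyme that also forms lactose synthase with α-lactalbumin, read 7.52, 7.54 and 7.37 in the first set and 7.78 and 7.81 in MP2-α2Δ and MP2-α9α2 cells by 201883_s_at. Of its other probe sets, 4 read between 2.24 and 3.74 and 1 stayed at the minimum. B4GALT2 (209413_at) read 7.27 in mock cells, 7.27 in MP2-α2/TC, 7.18 in MP2-α2/CI, 7.36 in MP2-α2Δ cells and 6.97 in MP2-α9α2. The 0.39 between the last pair was its widest step within a set. B4GALT3 read 9.47, 9.46 and 9.46 by 210243_s_at, and 10.18 and 9.96 in MP2-α2Δ and MP2-α9α2 cells. Its second probe set was above the floor, at 2.48, in MP2-mock cells alone.

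B4GALT4, an enzyme that also extends sulfated lactosamine, had a pair of probe sets with closely similar profiles. They read 5.65, 5.65 and 5.69 (210540_s_at) and 5.61, 5.55 and 5.55 (212876_at) in the first set. MP2-α2Δ read 7.98 and 7.63 by them, and MP2-α9α2 7.62 and 7.52. B4GALT7, the proteoglycan linker enzyme, differed by at most 0.07 in log2 within a set. Probe set 53076_at read 6.28 on all 3 arrays of the first set, with 7.67 and 7.63 on the others, and 222191_s_at read 7.24, 7.24 and 7.20, with 8.38 and 8.30. Among all members in MP2-α2/TC against MP2-mock cells, 7 of 24 values were identical within 1e-06, and 13 were within 1.1-fold. Of all probe sets 50.2% were identical and 84.1% within 1.1-fold.

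Levels in the 2 sets of arrays were only set side by side, since the sets were taken to be normalized separately, as inferred from their minima. Among the 27320 probe sets that cleared the floor on every array, medians were 6.88 to 6.89 in the first set and 7.69 to 7.72 in the second. Each member was therefore also read after centring the 5 arrays on these medians and after quantile normalization over them. These scalings act on whole arrays, so that their agreement is no check on set differences particular to a probe set. The ACTB 3′ minus 5′ difference given above also differed between the sets, and its part in these readings was not tested. ST3GAL5 lay higher in MP2-α2Δ and MP2-α9α2 than on any array of the first set by all 3 scalings, at 7.09 and 5.84 against 5.15 to 5.30 when centred and 7.08 and 5.83 against 5.17 to 5.31 by quantiles. The same held for both probe sets of B4GALT4, which read 7.04 to 7.47 against 5.87 to 6.01 when centred. It also held for both of B4GALT7. Centred, these read 7.87 and 7.83 against 7.52 to 7.58 (222191_s_at), and 7.16 and 7.15 against 6.60 to 6.61 (53076_at). B4GALT5 was lower in both constructs by 221484_at and every scaling (8.57 and 8.99 against 10.24 to 10.37, centred), but not by 221485_at. The leading probe sets of B4GALT1, B4GALT2 and B4GALT3 gave no order against the first set that held by every scaling. UGCG was not uniform. By 221765_at both constructs were higher by every scaling (7.55 and 7.59 against 4.76 to 5.84, centred), whereas by 204881_s_at MP2-α2Δ read 7.49 against 7.40 in MP2-mock as deposited but 6.98 against 7.74 when centred, so that the direction turned. For B4GALT6, MP2-α2Δ lay below the first set by all 3 detected probe sets and every scaling. MP2-α9α2 lay above it by 235333_at (9.87 against 8.37 to 8.63, centred) and 206233_at (9.22 against 7.21 to 7.68, centred) and below it by 206232_s_at (4.42 against 6.25 to 6.55, centred). The probe sets of this gene therefore shared the order of the constructs and the place of MP2-α2Δ below MP2-mock, and gave no common order of MP2-α9α2 against MP2-mock. For B3GNT5 225612_s_at, MP2-α2Δ read 9.10 against 8.84 in MP2-mock as deposited, but 8.59 against 9.17 when centred and 8.65 against 9.12 by quantiles. By this probe set MP2-α2Δ lay above both full-length α2 arrays by all 3 scalings (7.92 and 8.09, centred). By 1554835_a_at it lay below both by all 3 scalings (2.70 against 4.68 and 4.77, centred). By 1556134_a_at it lay below both when centred (1.92 against 2.91 and 2.69), and between them as deposited and by quantiles. The probe sets of B3GNT5 therefore gave no common order of MP2-α2Δ against the full-length α2 arrays.

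The rest of the pathway was examined through 8 lists of 121 genes, of which 111 were on the array by a probe set of their own. In α2 cells, of 85 tested in each comparison with MP2-mock and of 84 between the α2 populations, 0 passed 2-fold in either direction, by 1 probe set per gene. Over all genes the shares above and below MP2-mock by 2-fold were 0.292% and 0.378% for MP2-α2/TC, then 0.262% and 0.389% for MP2-α2/CI. On collagenI relative to standard culture they were 0.0395% and 0.15%. At shares this small, 0 among so few genes is near the background and no result about the lists. By the same rule B3GNT5 was called but UGCG was not, as its leading probe set was 1.73-fold apart in MP2-α2/TC cells. The closest to the limit in MP2-α2/TC cells was UAP1, which makes UDP-N-acetylglucosamine, at 13.07 in MP2-mock and 13.45 in MP2-α2/TC (0.38). Ceramide synthesis and transport genes had medians of 0.00 and -0.02 over 14 genes against MP2-mock, and CERS2, a ceramide synthase, read 12.77, 12.66 and 12.62.

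With the truncated α2 against the chimera, 11 of 87 list genes (12.6%) passed 2-fold upwards and 6 (6.90%) downwards, beside 10.1% and 4.97% of 12924 genes, shares near the background. The sialic acid supply genes GNE, the first enzyme of its synthesis, and NANS, which makes sialic acid phosphate, read 12.17 against 9.12 and 12.03 against 10.80, differences of 3.05 and 1.23. With them GALT and GALK1, of galactose breakdown, were higher by 1.29 and 1.14, and SLC35B4, a nucleotide sugar transporter, was lower (-1.06), so that 4 of 15 supply genes were higher and 1 lower. Among breakdown genes NEU1, the lysosomal sialidase, read 8.78 in MP2-α2Δ cells and lay at the floor on the other 4 arrays, a bound of 6.57 from its only probe set. GLA, which removes terminal galactose from globosides, was higher by 1.48, and GM2A, the activator of ganglioside breakdown, was lower by its leading probe set (10.07 against 11.40, -1.32) and by 6 of its 7 probe sets.

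Of 12 tested lactosamine capping genes, CHST4, a sulfotransferase, read 7.14 in MP2-α2Δ cells against 2.39 in MP2-α9α2 (4.75), and lay at the minimum in the first set. ST6GAL1, which caps lactosamine with sialic acid, and CHST2, another sulfotransferase, were lower (-1.31 and -1.49), and the median of the list was 0.00. Of 13 chain and branch genes, MGAT4A was higher (1.73) and MGAT5, which opens the branch favoured by long lactosamine chains, was lower (9.29 against 10.64, -1.34). The ceramide list held 1 gene apart among 15, the glycolipid transfer protein GLTP (10.91 against 12.45, -1.53, by both of its probe sets). The globo- and ganglio-series list held ST6GALNAC4 (11.08 against 9.50, 1.59, by 3 of 4 probe sets). Of the proteoglycan linker genes CSGALNACT1 was at least 4.68 higher, from 1 of 2 probe sets, and B3GAT3 was higher by 1.07. The calls for MGAT4A (1 of 4), MGAT5 (1 of 2), ST6GAL1 (1 of 3), CHST2 (1 of 2), B3GAT3 (1 of 2), GALT (1 of 3), GALK1 (1 of 2), NANS (1 of 2) and SLC35B4 (1 of 3) likewise rest on 1 of the probe sets of each gene. None of 4 tested galectins, which bind lactosamine, was 2-fold apart, and LGALS3 read 14.06 against 13.28.

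**Figure D4:**
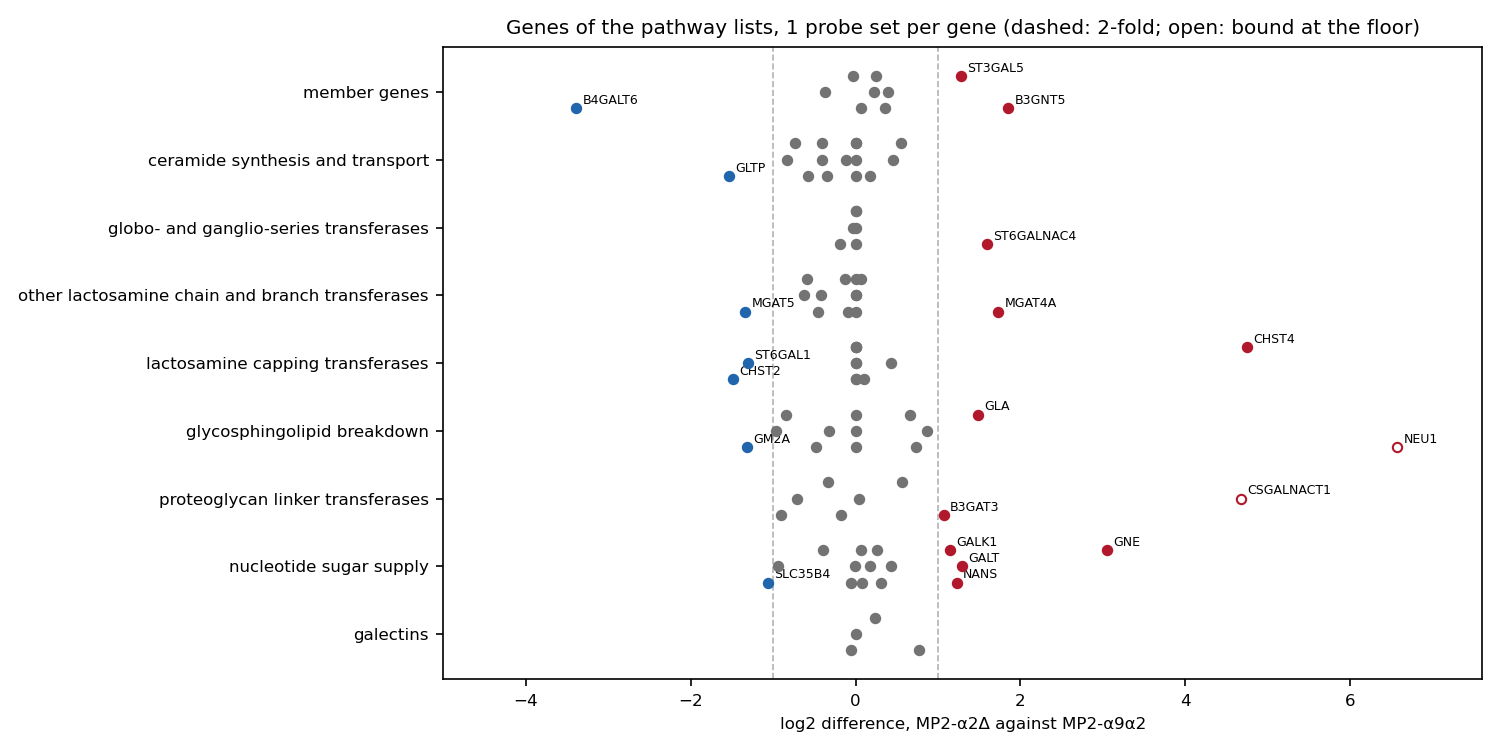
Log2 difference of MP2-α2Δ from MP2-α9α2 cells (x axis) for the member genes and the genes of 8 pathway lists (y axis), 1 point per gene by its brightest probe set, open where the difference is a bound at the floor and labelled where at least 2-fold (dashed lines). B4GALT6 at -3.39 lies furthest left of all genes plotted, and NEU1 at 6.57 furthest right.

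Profiles most like those of the members were sought by Euclidean distance over 3 log2 differences (both α2 populations against MP2-mock, and MP2-α2Δ against MP2-α9α2), from 5 arrays, among 23603 probe sets with 1 gene. Closest to B3GNT5 225612_s_at was CD83, an activation marker of dendritic cells and lymphocytes, at a distance of 0.13. It read 5.43 in mock cells, 4.31 in MP2-α2/TC, 4.35 in MP2-α2/CI, 6.76 in MP2-α2Δ cells and 4.89 in MP2-α9α2. PRRG4, STAP2, TNFRSF9 (a costimulatory receptor of the TNF receptor family) and NRIP3 followed at 0.40 to 0.69. Closest to B4GALT6 206233_at were IL1RAPL1 at 0.36, BMPR1B, a BMP receptor, at 0.37, the lipid phosphatase PLPP3 at 0.60, the retinoic acid receptor RARB at 0.77 and the transcription factor KLF9 at 0.80. Of these, PLPP3 read 7.69, 7.04 and 7.55 in the first set, with 4.04 and 8.45 in MP2-α2Δ and MP2-α9α2 cells, while IL1RAPL1 lay within 0.2 of the floor in the first set. RARB also lay close to the floor there, at 2.26 on each array against floors of 2.25 to 2.27.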

How the data were processed

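The authors' deposited values, 1 for each probe set on an array, run from 2.21 to 16.28 and were read as log2, although no source used here states the base. GCRMA and MAS5 are the tools listed in the submitters' notes, with neither role nor version, and the normalization sets were inferred from the minima. Control probe sets (62 of 54675) were dropped. Symbols came from the platform annotation, updated by gene identifier for 41037 of 41091 probe sets with 1 gene through RefSeq (GRCh38.p14). RefSeq promoter windows matched 9 of the 10 genes.

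Values below the floor were raised to it. Differences were taken for 4 pairs of arrays within a set, and a call needed 2-fold among probe sets above the floor on either array. Pathway lists took, for each gene, the probe set of highest average. No test was run, as each population had 1 array and the number of arrays limits the precision. The counting was tested on simulated data. Named were all members, list genes at least 2-fold apart and up to 4 others per list, markers, integrin genes, and the 5 genes nearest in profile to B3GNT5 and to the other member with the widest range. Members, lists and rules were chosen with earlier results of these data known. Alternatives were no floor or a floor at 4, centring, quantile normalization, 1.5-fold and 3-fold, exclusion of _x_at and _s_at probe sets, and 1 probe set per gene. Protein sequences were not used here. Python 3.11.15, pandas 2.3.3 and numpy 2.4.6 were used.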

Additional observations from a re-analysis of the deposited data

How the results depend on the processing

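No floor, a floor at 4, centring and quantile normalization left every count of member probe sets at least 2-fold apart within 1.5 times its value. Among single log2 differences still tested under these 4 settings, that of B4GALT6 206232_s_at between MP2-α2Δ and MP2-α9α2 alone moved by more than 0.2. It went to -0.89 with a floor at 4, no longer 2-fold, and to -2.28 by quantiles. A floor at 4 left 70 others to compare, whereas 94 were compared with no floor. Differences with both arrays at or below 4 dropped out there. They included B3GNT5 1556134_a_at in every pair and B3GNT5 1554835_a_at between MP2-α2Δ and MP2-α9α2, so these were not checked by that setting. At 1.5-fold, MP2-α2/TC against MP2-mock gave 3 higher and 2 lower, and MP2-α2/CI against MP2-mock 1 higher and 2 lower. At 3-fold, MP2-α2/TC gave 0 higher and 0 lower, MP2-α2/CI 0 lower, and MP2-α2Δ against MP2-α9α2 1 higher. Without the _x_at and _s_at probe sets, B3GNT5 225612_s_at and ST3GAL5 203217_s_at leave, so that 0 were lower in MP2-α2/TC, 0 lower in MP2-α2/CI and 0 higher in MP2-α2Δ cells. With 1 probe set per gene, 0 were higher in MP2-α2/TC cells, since the leading UGCG probe set was 1.73-fold apart, and 1 was lower in MP2-α2Δ cells, where the 3 probe sets of B4GALT6 count once.

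No paired analysis was possible because each population had 1 array. Precision is limited by the lack of replicates and, for B4GALT1, B4GALT3 and B3GNT5 probe sets within 1 log2 unit of the floor, by signal over background, where differences are compressed.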
